A study of Mus musculus with 9 samples.

Results

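RNA of 36 genes that act in glycolysis or in the response to low oxygen was examined in mammary tumors of Brca1-deficient mice. The genes were chosen by name, as a list of mouse symbols, and all 36 were found among the 35275 genes of the count table. The tumors came from Brca1Co/Co;MMTV-Cre;p53+/- mice, in which Cre driven by the MMTV promoter removes the floxed Brca1 alleles mainly in mammary epithelium and 1 copy of p53 is missing throughout the animal. RNA was sequenced from 9 tumors, 3 of them from mice given saline (A3673, A3685 and A3688). Another 3 came from mice given free Talazoparib into a vein (i.v. TLZ, tumors B3638, B3684 and B3700). The last 3 came from mice given Talazoparib in a nano-liposome, also into a vein (NanoTLZ, tumors C3519, C3669 and C3698). Talazoparib is an inhibitor of PARP enzymes, and both treated groups received 5 doses, given 3 times weekly, of 0.33 mg/kg each. The genotype was shared by all 3 groups, saline included, and the labels give the same schedule for saline. Each tumor was taken as 1 replicate from its own mouse, as far as the labels say. Tumors given empty liposomes were not analysed here, so the drug and its carrier cannot be told apart in the NanoTLZ group.

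Glycolysis splits glucose into pyruvate and yields ATP without oxygen, and tumors often send much of that pyruvate to lactate. When oxygen is scarce, the prolyl hydroxylases that mark HIF alpha subunits for destruction slow down, and the stabilized HIF factors bind short DNA motifs near genes of glucose uptake, glycolysis, lactate export, pH control and collagen hydroxylation. Basal-like mammary tumors are known for high glucose use and for regions of poor oxygen supply.

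Totals of 17538380 to 21194980 counts on genes were obtained per tumor. Levels in a tumor are given as CPM, counts per 1000000 after TMM scaling of the library sizes, with values listed in the order of the tumor names above. All 36 genes passed the filter on low counts and were among the 15821 genes tested with edgeR's quasi-likelihood F-test, fitted to all 9 tumors with Benjamini-Hochberg adjustment over all tested genes. The smallest count of any of the 36 genes in any tumor was 19 reads. The 10 epithelial markers summed to 9134, 5488 and 7571 CPM in the saline tumors, 7839, 7702 and 6782 CPM after i.v. TLZ, and 6219, 6145 and 4197 CPM after NanoTLZ, with Krt8 highest over all 9 tumors together and Epcam, Krt5, Krt14 or Krt18 higher in 5 single tumors. Brca1 itself was counted at 32.6, 29.6 and 42.7 CPM in the saline tumors, 11.8, 9.46 and 31.5 CPM after i.v. TLZ, and 18.4, 18.2 and 19.8 CPM after NanoTLZ, but a total over the whole gene does not show which exons were counted and so is no check of the deletion. Because whole tumors were sequenced, fewer cells of a type and less RNA per cell cannot be told apart.

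The clearest pattern lay in the free drug group. Levels of 6 of the 36 genes were higher in every i.v. TLZ tumor than in any of the 6 saline and NanoTLZ tumors, where 1.07% of all tested genes showed this. The 6 genes were Slc2a1, which carries glucose into the cell, Pfkp, a phosphofructokinase, Pdk1, which turns off pyruvate dehydrogenase, Car9, Egln1 and P4ha2. Car9 is a carbonic anhydrase of the cell surface, Egln1 an oxygen-sensing prolyl hydroxylase, and P4ha2 hydroxylates collagen. None of the 36 genes was lower in every i.v. TLZ tumor than in the other 6 (0.721% of all genes). No member stood apart in NanoTLZ in either direction, where 0.809% of all genes were higher and 0.733% lower than in the remaining 6 tumors. The same 6 genes stood apart after scaling by total counts, RLE or the upper quartile. They also did so without A3688 (1.78% of all genes) and without B3684 (3.17%), while without B3700 the number was 11 (3.75%), with Gpi1, Aldoa, Tpi1, Gapdh and Ldha added. This count was chosen after the values were seen, and no member passed edgeR's test over all genes in any comparison, as set out below. Counts of all 36 genes together summed to 10875, 8812 and 6018 CPM in the saline tumors, 12475, 12096 and 11359 CPM after i.v. TLZ, and 8784, 7646 and 8535 CPM after NanoTLZ, so that all 3 i.v. TLZ sums lay above the other 6, with Pkm, Gapdh and Eno1 making up much of each sum.

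**Figure D1:**
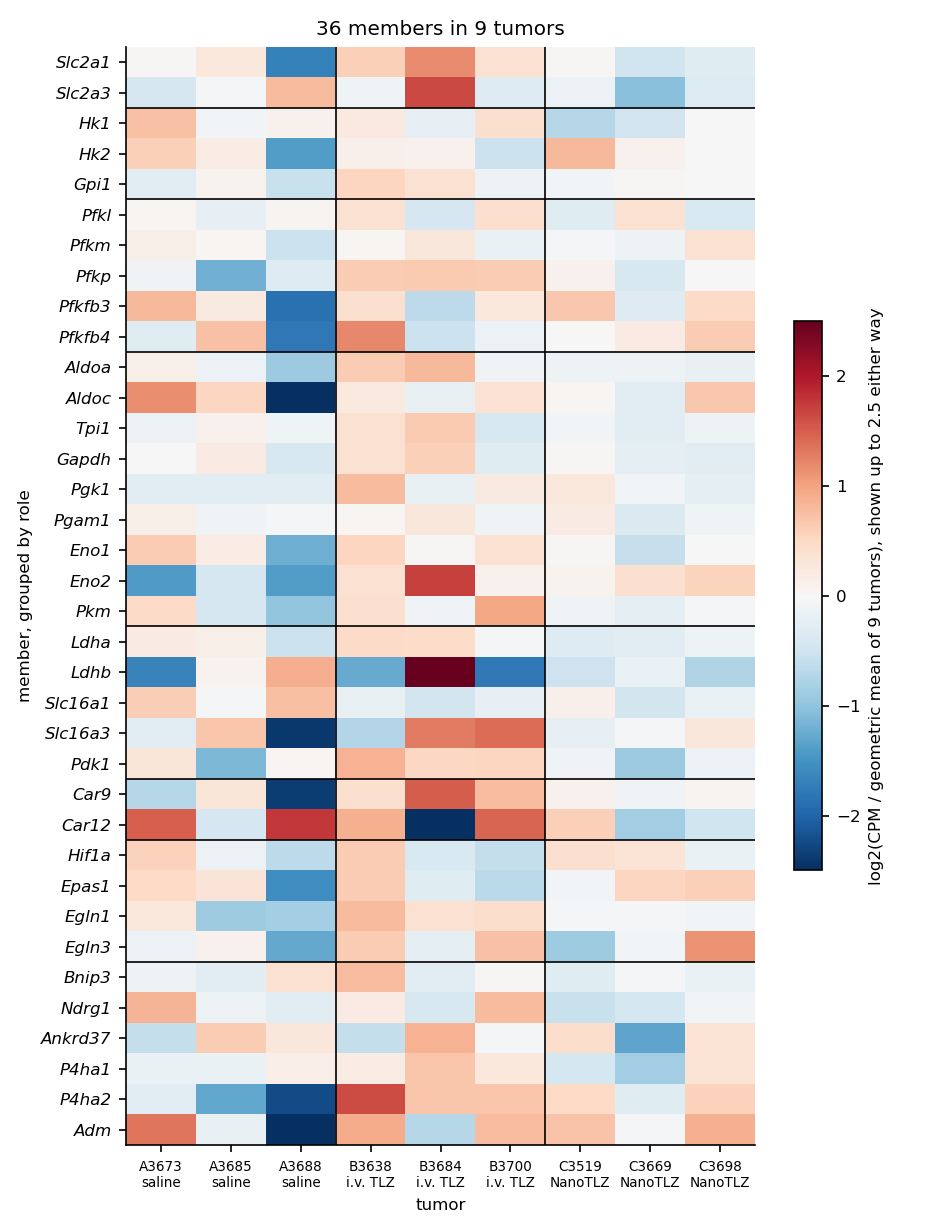
Level of each of the 36 genes (rows, grouped by role) in each of the 9 tumors (columns), as log2 of CPM over the gene's geometric mean across the tumors. The i.v. TLZ group has the highest mean CPM for 26 genes, where it is highest for 31.8% of all tested genes. Saline tumor A3688 has the lowest level of 20 genes, and Ldhb in B3684 runs past the end of the color scale.

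P4ha2 had the smallest unadjusted p of the 36 genes in both comparisons with saline. It is the catalytic subunit of a collagen prolyl 4-hydroxylase and a known HIF target. Its level was 44.5, 21.7 and 11.2 CPM in the saline tumors, 165, 86.2 and 85.4 CPM after i.v. TLZ, and 74.7, 43.2 and 78.8 CPM after NanoTLZ. Every i.v. TLZ tumor lay above every saline tumor, whereas NanoTLZ tumor C3669 lay just below saline tumor A3673. Scaled by total counts or by the upper quartile, P4ha2 also did not overlap between the 6 treated and the 3 saline tumors. Group means were 25.8 CPM ± 17.0 (SD, n = 3) for saline, 112 CPM ± 45.6 (SD, n = 3) for i.v. TLZ and 65.6 CPM ± 19.5 (SD, n = 3) for NanoTLZ. In i.v. TLZ against saline, P4ha2 did not pass the test (log2 fold change 2.12 ± 0.51 (SE), adjusted p = 0.417), and the interval of the log2 fold change was 0.98 to 3.26. NanoTLZ against saline gave the same outcome (log2 fold change 1.35 ± 0.50 (SE), adjusted p = 0.552).

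Eno2, the enolase best known from neurons, was one of only 2 members for which no treated tumor overlapped a saline tumor. Its level was low, at 1.49, 2.95 and 1.51 CPM in the saline tumors, 5.14, 12.9 and 4.27 CPM after i.v. TLZ, and 4.24, 5.24 and 5.85 CPM after NanoTLZ. All 6 treated tumors exceeded the highest saline tumor, and B3684 was the highest of all. Eno2 did not pass the test either, with log2 fold change 1.90 ± 0.55 (SE), adjusted p = 0.417 in i.v. TLZ against saline and log2 fold change 1.36 ± 0.54 (SE), adjusted p = 0.552 in NanoTLZ against saline. DESeq2 fitted to all 9 tumors called P4ha2 (adjusted p = 0.0192) and Eno2 (adjusted p = 0.0476) in i.v. TLZ against saline, while over all alternatives the adjusted p ranged from 0.0192 to 0.779 for P4ha2 and from 0.0476 to 0.779 for Eno2.

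Pgk1, the phosphoglycerate kinase that makes ATP in lower glycolysis, was the other member without overlap. Its level was 456, 461 and 453 CPM in the saline tumors, 963, 489 and 648 CPM after i.v. TLZ, and 664, 530.2 and 475 CPM after NanoTLZ. The 3 saline tumors were nearly equal, and the gap to the lowest treated tumor, C3698, was small beside the spread among treated tumors. Its log2 fold change in treated against saline was 0.45 ± 0.28 (SE), with an adjusted p of 0.502. Over all genes, 2.81% were higher and 2.66% lower in all 6 treated than in all 3 saline tumors, against 2 and 0 of the 36. A share of 2 in 36 is near that background. Both numbers depended on single tumors, with 5 and 0 members without A3673 (6.02% and 5.76% of all genes). They were 4 and 2 without A3685 (9.4% and 9.46%), and 4 and 0 without C3669 (3.4% and 3.2%).

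Slc16a1, the lactate and pyruvate carrier MCT1, was the member with the smallest p in the other direction. It was counted at 112, 70.7 and 124 CPM in the saline tumors, 64.7, 53.0 and 63.6 CPM after i.v. TLZ, and 80.0, 53.6 and 65.7 CPM after NanoTLZ. The i.v. TLZ tumors all lay below the saline tumors, and NanoTLZ tumor C3519 lay above the lowest saline tumor, A3685. Saline tumors A3673 and A3688 exceeded all 6 treated tumors. Slc16a1 did not pass the test (log2 fold change -0.76 ± 0.28 (SE), adjusted p = 0.443 in i.v. TLZ and log2 fold change -0.62 ± 0.28 (SE), adjusted p = 0.561 in NanoTLZ, each against saline).

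**Figure D2:**
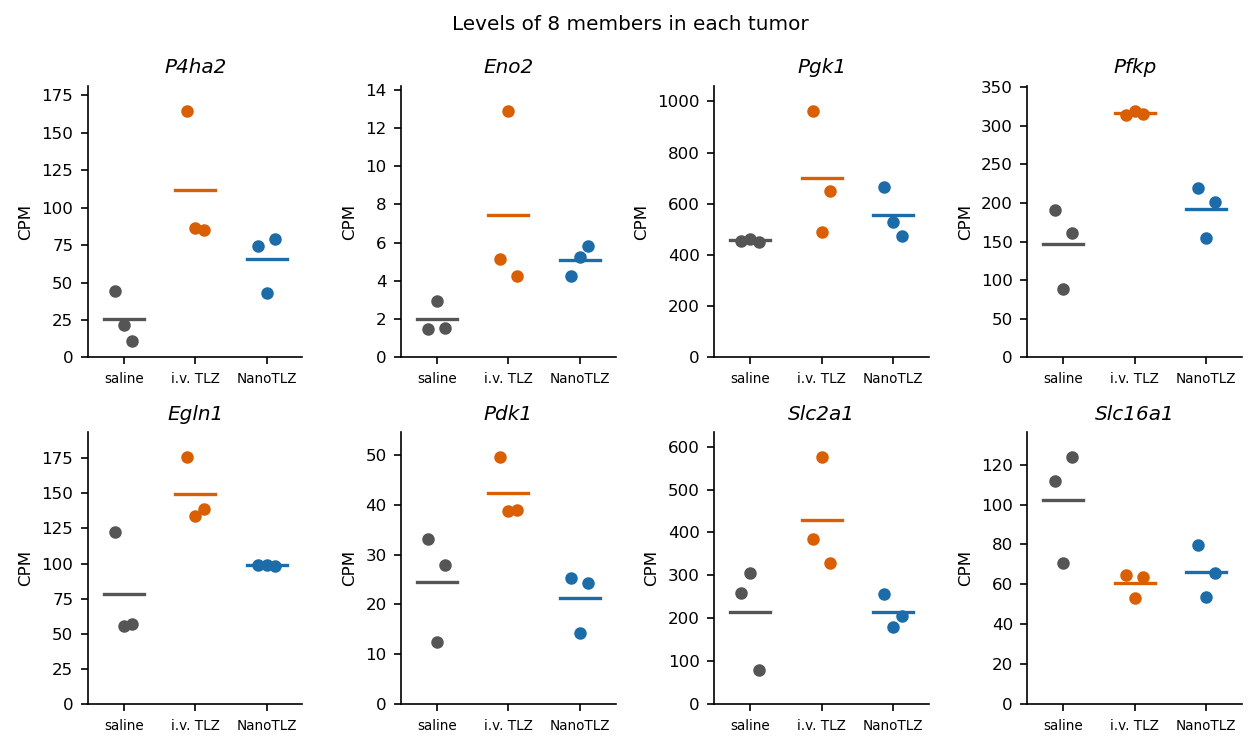
CPM of 8 members in each tumor (dots), with the mean of each group of 3 as a line and each vertical axis starting at 0. P4ha2, Pfkp, Egln1, Pdk1 and Slc2a1 are highest in the i.v. TLZ tumors, Eno2 and Pgk1 are higher in all treated tumors than in saline, and Slc16a1 is lower in the i.v. TLZ tumors than in saline.

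Promoters of these genes are shown because HIF factors are known to bind the letters ACGTG or GCGTG. Each window runs from 250 bases before to 50 bases after a transcription start in RefSeq (GRCm38.p6), and both strands were searched, so that CACGT and CACGC also count and a CACGTG holds overlapping matches of the ACGTG motif. Matches are in capitals. ACGTG was present in 19.6% of all 32851 promoters, GCGTG in 32.4% and either of them in 43.8%. The table held 46 promoters of 33 members, of which 37 (80.4%) held either motif, and Slc2a3, Epas1 and Ndrg1 had no entry. Several of these genes have more than 1 start, so the promoters are not independent of each other. The members were also chosen for roles in glycolysis or the response to low oxygen. Their share beside that of all promoters is therefore a description and not a test. The windows lie at chr11:54100674-54100973 on the plus strand for P4ha2, chr6:124769624-124769923 on the minus strand for Eno2, chrX:106186850-106187149 on the plus strand for Pgk1, chr3:104638414-104638713 on the plus strand for Slc16a1, chr13:6648722-6649021 on the minus strand for Pfkp and chr8:124949205-124949504 on the minus strand for Egln1.
P4ha2: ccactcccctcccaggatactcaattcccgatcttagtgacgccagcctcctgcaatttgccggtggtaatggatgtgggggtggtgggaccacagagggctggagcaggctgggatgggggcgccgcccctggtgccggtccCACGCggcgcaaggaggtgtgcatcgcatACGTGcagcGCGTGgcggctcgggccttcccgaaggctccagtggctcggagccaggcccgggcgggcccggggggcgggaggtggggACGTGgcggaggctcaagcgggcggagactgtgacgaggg
Eno2: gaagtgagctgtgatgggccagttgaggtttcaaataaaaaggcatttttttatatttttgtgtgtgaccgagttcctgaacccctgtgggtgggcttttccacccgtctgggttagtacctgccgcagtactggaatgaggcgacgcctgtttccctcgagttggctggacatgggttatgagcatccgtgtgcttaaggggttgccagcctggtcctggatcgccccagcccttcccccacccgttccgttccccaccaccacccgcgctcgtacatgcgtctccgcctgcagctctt
Pgk1: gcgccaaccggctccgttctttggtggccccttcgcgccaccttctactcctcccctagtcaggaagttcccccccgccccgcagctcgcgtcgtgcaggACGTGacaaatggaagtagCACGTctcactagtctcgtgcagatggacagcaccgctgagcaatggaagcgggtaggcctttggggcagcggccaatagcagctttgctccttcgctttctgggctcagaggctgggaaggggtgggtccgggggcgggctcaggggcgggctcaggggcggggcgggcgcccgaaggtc
Slc16a1: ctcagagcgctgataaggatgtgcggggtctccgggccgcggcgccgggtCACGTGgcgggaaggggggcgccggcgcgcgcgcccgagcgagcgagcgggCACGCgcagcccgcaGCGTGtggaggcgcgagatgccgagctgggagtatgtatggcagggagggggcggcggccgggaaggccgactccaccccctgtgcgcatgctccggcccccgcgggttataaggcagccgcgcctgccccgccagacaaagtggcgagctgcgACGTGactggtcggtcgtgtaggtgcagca
Pfkp: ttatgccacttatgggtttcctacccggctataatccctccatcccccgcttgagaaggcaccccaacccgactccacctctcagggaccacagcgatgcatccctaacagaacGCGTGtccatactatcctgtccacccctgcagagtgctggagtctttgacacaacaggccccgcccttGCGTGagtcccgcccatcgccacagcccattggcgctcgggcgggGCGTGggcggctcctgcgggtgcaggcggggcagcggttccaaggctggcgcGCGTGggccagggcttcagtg
Egln1: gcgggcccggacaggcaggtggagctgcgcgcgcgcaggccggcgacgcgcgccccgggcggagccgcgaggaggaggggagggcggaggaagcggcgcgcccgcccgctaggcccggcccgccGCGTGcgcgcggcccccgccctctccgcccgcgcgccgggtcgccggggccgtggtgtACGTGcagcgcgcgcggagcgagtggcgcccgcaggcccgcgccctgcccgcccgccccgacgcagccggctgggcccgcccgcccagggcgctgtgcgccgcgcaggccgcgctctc
The P4ha2 window held 4 matches, Pfkp 4, Pgk1 2 and Egln1 2. Slc16a1, which was lower in the i.v. TLZ tumors than in saline, held 5, and Eno2, higher in all treated tumors, held 0. A match of these letters is a description of the window and not a site of binding, and factor binding was not measured.

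Glucose enters through Slc2a1 (GLUT1) and, with higher affinity, Slc2a3 (GLUT3). Slc2a1 was counted at 259, 305 and 78.4 CPM in the saline tumors, 384, 576 and 329.7 CPM after i.v. TLZ, and 257, 181 and 206 CPM after NanoTLZ. All 3 i.v. TLZ tumors exceeded the other 6, while saline tumor A3688 was 2.30-fold below the next lowest. In NanoTLZ against i.v. TLZ its log2 fold change was -1.003 ± 0.46 (SE), with adjusted p = 0.9999. Slc2a3 was scarce, at 3.89, 5.00 and 8.99 CPM in the saline tumors, 4.85, 16.3 and 4.17 CPM after i.v. TLZ, and 4.67, 2.51 and 4.09 CPM after NanoTLZ, and its highest value was in B3684. Its difference between NanoTLZ and i.v. TLZ, a log2 fold change of -1.17 (adjusted p = 0.9999), shrank to -0.26 without B3684.

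Hexokinases trap glucose by phosphorylation. Hk1, the widespread form, was 275, 157 and 177 CPM in the saline tumors, 194, 142 and 218 CPM after i.v. TLZ, and 100.4, 118 and 166 CPM after NanoTLZ. It was among the 5 members of smallest p in NanoTLZ against saline, where its log2 fold change was -0.66 ± 0.32 (SE, adjusted p = 0.566), and all 3 groups overlapped. That fold change ranged from -0.86 to -0.35 with each tumor left out in turn. Hk2, the form most often raised in tumors and by HIF, was 131, 98.2 and 33.0 CPM in the saline tumors, 94.2, 93.5 and 59.8 CPM after i.v. TLZ, and 153, 94.1 and 86.2 CPM after NanoTLZ. Its values in treated tumors spanned those of the saline tumors A3673 and A3685, and A3688 was lowest. Gpi1, which turns glucose 6-phosphate into fructose 6-phosphate, ranged from 144 CPM in A3688 to 308 CPM in B3638.

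Phosphofructokinase commits sugar to glycolysis, and Pfkl, Pfkm and Pfkp encode its liver, muscle and platelet subunits. Pfkp was 190.5, 88.0 and 161 CPM in the saline tumors, 314, 319 and 315 CPM after i.v. TLZ, and 219, 155 and 202 CPM after NanoTLZ. The i.v. TLZ tumors were almost equal to each other and well above every other tumor. Pfkp did not pass the test over all genes in i.v. TLZ against saline (log2 fold change 1.11 ± 0.32 (SE), adjusted p = 0.417) or in NanoTLZ against i.v. TLZ (log2 fold change -0.72 ± 0.32 (SE), adjusted p = 0.9999). Pfkl, at 274, 229 and 279 CPM in the saline tumors, 343, 199 and 355 CPM after i.v. TLZ, and 215, 345 and 202 CPM after NanoTLZ, and Pfkm, at 56.0, 52.2 and 34.9 CPM in the saline tumors, 52.3, 62.1 and 44.9 CPM after i.v. TLZ, and 48.8, 46.6 and 65.7 CPM after NanoTLZ, overlapped between all groups. Pfkfb3 and Pfkfb4 make fructose 2,6-bisphosphate, the main activator of phosphofructokinase. Pfkfb3 was 88.1, 58.6 and 13.8 CPM in the saline tumors, 66.8, 31.9 and 60.3 CPM after i.v. TLZ, and 79.9, 40.5 and 69.8 CPM after NanoTLZ. Pfkfb4 was 15.05, 30.9 and 5.41 CPM in the saline tumors, 42.6, 12.8 and 16.9 CPM after i.v. TLZ, and 18.9, 21.5 and 28.9 CPM after NanoTLZ. Both were lowest in saline tumor A3688, by more than 2-fold below the next tumor, and otherwise showed no order by group.

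Lower glycolysis held the most abundant members. Over all 9 tumors and per kb of exon, mean levels were 354 CPM for Gapdh, 341 for Pkm, 255 for Aldoa, 254 for Pgk1 and 211 for Ldha. The order depends on the length used. Divided by the longest transcript, Pkm led with 702 CPM per kb, followed by 539.9 for Eno1, 479 for Aldoa and 445 for Gapdh.

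Aldolase A (Aldoa) was 775, 638 and 374 CPM in the saline tumors, 1099, 1233 and 661 CPM after i.v. TLZ, and 640.2, 641 and 616 CPM after NanoTLZ. Aldoc, the aldolase of brain that HIF also raises, was 167, 107 and 12.8 CPM in the saline tumors, 87.3, 64.7 and 94.9 CPM after i.v. TLZ, and 76.2, 60.6 and 118 CPM after NanoTLZ. A3688 had much less Aldoc than any other tumor. Aldoa was lower in every NanoTLZ than in every i.v. TLZ tumor, but the log2 fold change of -0.66 ± 0.36 (SE) had an adjusted p of 0.9999. Tpi1, the triose isomerase, ranged from 305 CPM in B3700 to 634 CPM in B3684. Gapdh, which the study used as the reference gene of its RT-qPCR, was 1434, 1655 and 1084 CPM in the saline tumors, 1855, 2150.1 and 1160.1 CPM after i.v. TLZ, and 1450.2, 1203 and 1195 CPM after NanoTLZ. Its highest tumor, B3684, had 1.98 times the level of its lowest, A3688, and its log2 fold change in treated against saline was 0.10 ± 0.30 (SE). Pgam1, the phosphoglycerate mutase, was 205, 173 and 179 CPM in the saline tumors, 191, 225 and 172 CPM after i.v. TLZ, and 212, 144 and 171 CPM after NanoTLZ and had the smallest ratio of highest to lowest tumor of all 36 genes, 1.56.

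Eno1, the main enolase, was 1589, 1172 and 440.3 CPM in the saline tumors, 1499.8, 1052 and 1346 CPM after i.v. TLZ, and 1052, 685 and 1014 CPM after NanoTLZ. It was lowest in A3688, and the groups overlapped. Part of its reads may be divided with Eno1b, a near-identical copy that held between 14.3% and 22.0% of the counts of both genes, so levels of Eno1 are uncertain. Pkm, pyruvate kinase of muscle and tumors, was 2227, 1184 and 808 CPM in the saline tumors, 2103, 1494 and 3121 CPM after i.v. TLZ, and 1503, 1367 and 1549.9 CPM after NanoTLZ. Tumor B3700 was highest and A3688 lowest, and gene counts do not separate the Pkm splice forms.

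Pyruvate goes to lactate through lactate dehydrogenase, whose A subunit favors lactate formation. Ldha was 786, 750.3 and 466 CPM in the saline tumors, 942, 936 and 669.7 CPM after i.v. TLZ, and 544, 563 and 627 CPM after NanoTLZ. Every NanoTLZ tumor lay below every i.v. TLZ tumor, with a log2 fold change of -0.55 ± 0.31 (SE, adjusted p = 0.9999). Pdk1, the kinase that turns off pyruvate dehydrogenase, was 33.1, 12.4 and 28.0 CPM in the saline tumors, 49.6, 38.8 and 39.1 CPM after i.v. TLZ, and 25.3, 14.3 and 24.4 CPM after NanoTLZ. Its 3 i.v. TLZ values exceeded the other 6, and neither comparison passed the test (log2 fold change 0.79 ± 0.39 (SE), adjusted p = 0.509 for i.v. TLZ against saline, log2 fold change -0.996 ± 0.39 (SE), adjusted p = 0.9999 for NanoTLZ against i.v. TLZ). Slc16a3, the lactate exporter MCT4, was 104.7, 203 and 23.6 CPM in the saline tumors, 76.3, 311 and 334 CPM after i.v. TLZ, and 109.6, 124 and 153 CPM after NanoTLZ. Within saline alone it differed between A3685 and A3688 by more than between any group means.

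Ldhb, the B subunit of lactate dehydrogenase, had the largest fold change of the 36 genes in i.v. TLZ against saline and in NanoTLZ against i.v. TLZ, and both rested on 1 tumor. Its level was 7.72, 26.3 and 46.1 CPM in the saline tumors, 10.3, 894 and 7.20 CPM after i.v. TLZ, and 17.3, 21.9 and 14.6 CPM after NanoTLZ. B3684 exceeded the highest of the other 8 tumors 19.4-fold. The log2 fold change of NanoTLZ against i.v. TLZ was -4.08 ± 1.57 (SE, adjusted p = 0.9999) and turned to 1.04 without B3684. With all tumors kept, limma-voom gave -1.18, so its size also depends on the method. Ldhb lies on chromosome 6 at chr6:142490249-142507957 (mm10, minus strand), and its neighbours in B3684 were high as well. Of 14 other tested genes within 1 Mb, 12 had their highest level in B3684, and the median log2 ratio of B3684 to the median of the other 8 tumors was 4.11. In no other member and tumor did the corresponding median exceed 1.33 on the log2 scale in either direction. From Plekha5 to Itpr2, at chr6:140424054-146502223, 21 of 30 tested genes were at least 8-fold above the median of the other tumors in B3684, against 8 of 769 on the rest of the chromosome. Bhlhe41, a gene of this stretch that HIF raises in many cells, was 5582 CPM in B3684 and at most 511 CPM elsewhere. Golt1b, Cmas and Rassf8 were 1643, 2126 and 1793 CPM there, with highest values of 101, 108 and 34.0 CPM in other tumors. The stretch was outlined after its values were seen, and DNA copy number was not measured.

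**Figure D3:**
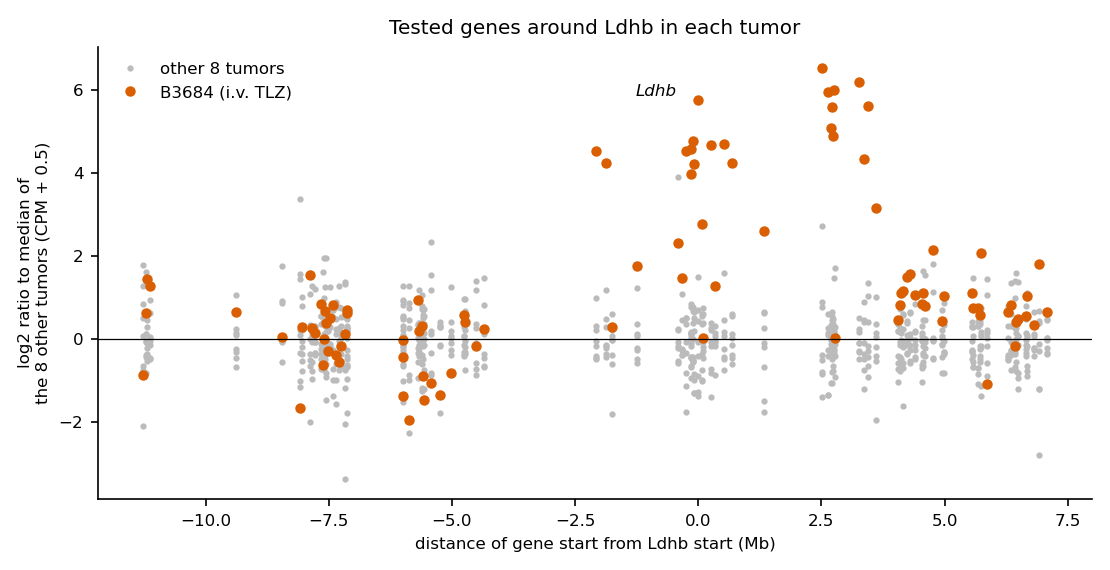
Log2 ratio of each tested gene in 1 tumor to its median in the other 8 (CPM + 0.5), against the distance of its start from the start of Ldhb, for B3684 (orange) and each other tumor (gray). Orange points from about 2 Mb on one side of Ldhb to nearly 4 Mb on the other lie mostly above the gray ones, with a median of 4.44 between Plekha5 and Itpr2 against 0.25 on the rest of the chromosome.

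Carbonic anhydrases Car9 and Car12 help cells to hold their pH while acid is exported. Car9 was low, at 4.06, 8.15 and 1.28 CPM in the saline tumors, 8.73, 19.0 and 11.3 CPM after i.v. TLZ, and 7.12, 6.22 and 6.98 CPM after NanoTLZ, and each i.v. TLZ tumor exceeded the other 6. It did not pass the test (log2 fold change 1.53 ± 0.61 (SE), adjusted p = 0.449 in i.v. TLZ against saline). Car12 ranged from 2.02 CPM in B3684 to 147 CPM in A3688, and without B3684 its lowest value was 23.7 CPM in C3669. B3684 thus had the most Car9 and the least Car12 of all 9 tumors.

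HIF alpha subunits and the hydroxylases that control them come next. Hif1a, which encodes HIF-1 alpha, was 83.1, 50.5 and 35.6 CPM in the saline tumors, 87.1, 43.4 and 37.1 CPM after i.v. TLZ, and 74.1, 71.3 and 49.9 CPM after NanoTLZ. Epas1, which encodes HIF-2 alpha, was 104, 91.7 and 24.8 CPM in the saline tumors, 113, 59.3 and 45.9 CPM after i.v. TLZ, and 69.8, 107 and 110.1 CPM after NanoTLZ. Neither was ordered by group, and protein, the form that oxygen controls, was not measured by RNA counts. Egln1 (PHD2), a hydroxylase of HIF alpha and also a HIF target, was 122, 55.6 and 57.0 CPM in the saline tumors, 176, 134 and 139 CPM after i.v. TLZ, and 99.2, 98.7 and 98.1 CPM after NanoTLZ. The NanoTLZ tumors were nearly equal to each other and lay below all i.v. TLZ tumors, while saline tumor A3673 stood between. Egln1 did not pass the test (log2 fold change 0.93 ± 0.33 (SE), adjusted p = 0.443 in i.v. TLZ against saline). Egln3 (PHD3) was 36.3, 43.0 and 16.6 CPM in the saline tumors, 62.4, 33.9 and 66.3 CPM after i.v. TLZ, and 21.6, 37.9 and 87.4 CPM after NanoTLZ, with the NanoTLZ group holding both a low and the highest value.

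Of the remaining hypoxia response genes, P4ha1 was higher in each i.v. TLZ tumor than in saline, with a range over all tumors of 55.2 CPM in C3669 to 162 CPM in B3684 (log2 fold change 0.44 ± 0.33 in i.v. TLZ against saline, adjusted p = 0.643). Ndrg1, a stress gene raised by low oxygen, was 454, 230.1 and 207 CPM in the saline tumors, 291, 190.4 and 437 CPM after i.v. TLZ, and 171, 185 and 239 CPM after NanoTLZ. Its log2 fold change in NanoTLZ against saline was -0.58 ± 0.40 (SE, adjusted p = 0.649), and the groups overlapped. With each tumor left out in turn, this fold change ranged from -0.75 to -0.11. Bnip3, which removes mitochondria under low oxygen, ranged from 33.8 CPM in C3519 to 71.1 CPM in B3638. Adm, a vessel-widening peptide, ranged from 1.33 CPM in A3688 to 43.5 CPM in A3673, so its extremes were both saline tumors. Ankrd37 was near the lower end of detection, at 1.04 to 4.70 CPM, and overlaps the more abundant Ufsp2 on the other strand.

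In i.v. TLZ against saline, most of these genes had higher levels with the free drug, though none was called by edgeR. Of the 36, 28 had a log2 fold change above 0, against 47.6% of all tested genes. Their median was 0.34, beside -0.034 over all genes. edgeR called 0 of the 36 at an adjusted p under 0.05 (0% of all genes), and limma-voom called 0. DESeq2 called 2 members on all 9 tumors, in a fit that called 194 genes, and 0 members on the groups compared, where it called 92 genes. At an unadjusted p under 0.05 there were 6 higher and 1 lower members, where 4.91% and 5.47% of all genes reached that. Ldhb is among the 6 higher ones through B3684 alone. In 9 members all i.v. TLZ tumors lay above all saline tumors and in 1 below, against 5.99% and 5.2% of all genes. Without B3700 these numbers were 14 and 1, against 10.7% and 11.6% of all genes, and without A3688 9 and 3 (11.1% and 9.36%). P4ha1 overlapped after scaling by total counts. Without saline tumor A3688, 24 members were above 0, against 53.3% of all genes, and the median was 0.28 beside 0.047 over all genes, so the lean was smaller. It was larger without A3673, with 33 above 0 (median 0.49, with 50.5% of all genes above 0). Without B3700, 30 were above 0 (median 0.51, with 48.6%).

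In NanoTLZ against saline the direction depended on single tumors. With all 9 tumors the 36 genes were divided almost evenly, 19 above and 17 below 0, against 43.9% of all genes above 0, with a median of 0.034 beside -0.085 over all genes. The median was 0.19 beside -0.013 with limma-voom, and 0.13 beside 0.0028 with upper quartile scaling. edgeR called 0 of them (0.00632% of all genes), as did limma-voom and DESeq2. P4ha2 and Eno2 were the 2 members higher at an unadjusted p under 0.05 and 0 were lower, against 3.51% and 5.49% of all genes. Groups did not overlap for 2 higher members, Eno2 and Pgk1, and 0 lower ones, against 7.82% and 8.13% of all genes. Those numbers were 6 and 2 without A3673 (14.0% and 15.1% of all genes) and 6 and 4 without A3685 (17.1% and 16.7%). Leaving out A3688 gave 2 and 3 (13.7% and 14.0%). Without A3688, the members above 0 numbered 13, against 51.1% of all genes, and the median was -0.07 beside 0.013 over all genes. Without A3673 they numbered 24 (median 0.21, with 49.2% of all genes above 0), and without C3669 24 (median 0.15, with 44.6%).

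The 2 formulations were compared directly, at the same dose and schedule. Of the 36 genes, 28 were lower in NanoTLZ than in i.v. TLZ, against 54.4% of all tested genes, and the median log2 fold change was -0.47 beside -0.036 over all genes. Below 0 were 19 of 24 glycolysis members and 9 of 12 hypoxia response members. edgeR called 0 members (0% of all genes), as did limma-voom and DESeq2. Ldhb, Pdk1 and Pfkp were lower at an unadjusted p under 0.05 and 0 members were higher, where 1.23% and 0.449% of all genes reached that. The number lower was 4 without A3673, A3688 or B3700, where 2.02%, 2.94% and 2.47% of all genes reached that in either direction. It was 1 without B3638, B3684 or C3519 (3.84%, 1.41% and 0.960%), and 0 without C3669 (1.24%). In 8 members every NanoTLZ tumor lay below every i.v. TLZ tumor (Slc2a1, Pfkp, Aldoa, Ldha, Pdk1, Car9, Egln1 and P4ha2) and in 0 above, against 4.41% and 3.2% of all genes. Without B3684 these numbers were 14 and 1, against 9.73% and 8.46% of all genes. They were 12 and 0 without B3700 (10.4% and 9.27%), and 9 and 3 without B3638 (11.2% and 12.0%). Aldoa overlapped after scaling by total counts or the upper quartile. Without B3684, 28 members were lower in NanoTLZ, against 51.4% of all genes, and the median was -0.42. This comparison shares its i.v. TLZ and NanoTLZ tumors with the comparisons against saline, so they are not independent.

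Taking both treated groups against saline, 28 of 36 members were above 0, against 46.0% of all tested genes, with a median of 0.15 beside -0.055 over all genes. The median was 0.34 beside -0.0044 with limma-voom, and 0.23 beside 0.018 with upper quartile scaling. edgeR and limma-voom called 0 members (0.019% of all genes by edgeR), and DESeq2 called Eno2 and P4ha2, in fits that called 273 genes on all 9 tumors and 366 on the groups compared. In the edgeR fit, log2 fold changes were 1.73 ± 0.46 (SE) for P4ha2, 1.63 ± 0.50 for Eno2, -0.69 ± 0.24 for Slc16a1, 0.75 ± 0.28 for Pfkp and 0.63 ± 0.29 for Egln1. With each tumor left out in turn, log2 fold changes ranged from 0.48 to 1.01 for Pfkp and from 0.44 to 1.13 for Egln1. Adjusted p ranged over the alternatives from 0.0258 to 0.487 for P4ha2 and from 0.0297 to 0.494 for Eno2. At an unadjusted p under 0.05, P4ha2, Eno2 and Pfkp were higher and Slc16a1 was lower, against 4.8% and 8.29% of all genes. Without A3688, 21 members were above 0, against 52.3% of all genes, with a median of 0.10 beside 0.032 over all genes, so the count was then near the background. Without A3673 it was 30 (median 0.48, with 50.4% of all genes above 0), and without B3700 30 (median 0.24, with 47.6%).

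**Figure D4:**
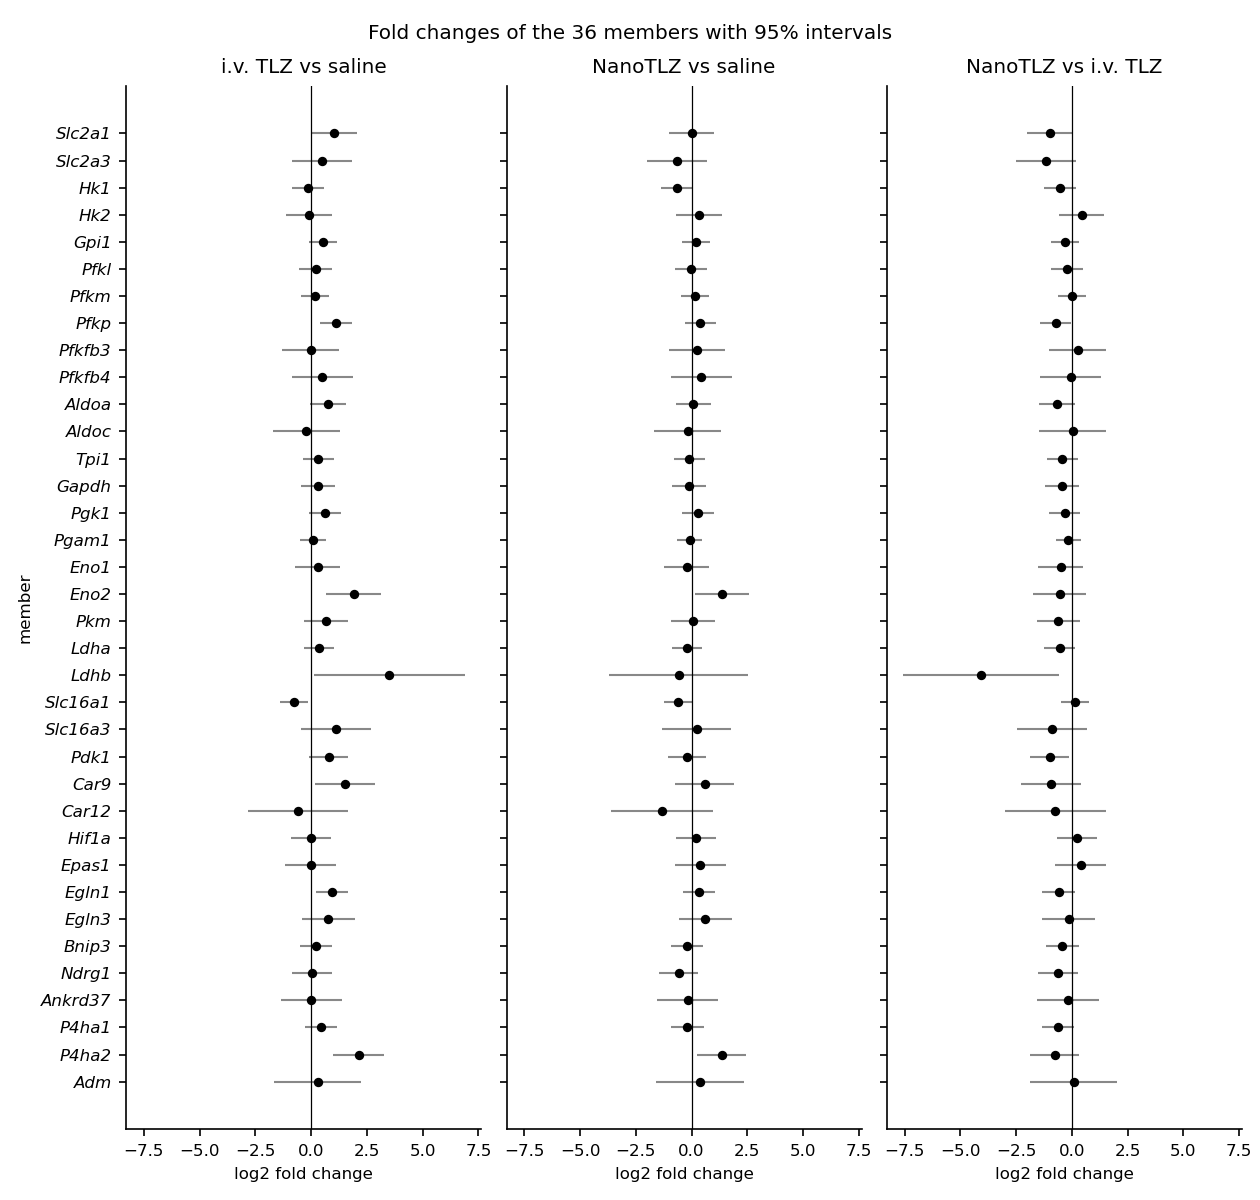
Log2 fold changes of the 36 genes (dots) with 95% intervals from the edgeR fit (lines) in i.v. TLZ against saline, NanoTLZ against saline and NanoTLZ against i.v. TLZ, on a shared horizontal axis. Most dots lie right of 0 for i.v. TLZ against saline and left of 0 for NanoTLZ against i.v. TLZ, and most intervals include 0.

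Many glycolytic steps are served by several isozymes, so the share of 1 gene in its family was compared as well, in counts per kb of exon. The 6 treated tumors were compared with the 3 saline tumors by an exact two-sided permutation test over 84 splits, adjusted over 12 families, and the smallest p this design can give is 0.0119. No share passed, but at least 3 shares at that p were needed for any to pass, so this does not show that shares were alike. Slc2a1 made up nearly all of Slc2a1, Slc2a3 and Slc2a4, with 97.7, 98.2 and 86.2% in the saline tumors, 98.1, 98.3 and 98.3% after i.v. TLZ, and 98.0, 98.3 and 97.0% after NanoTLZ (difference 3.94 percentage points, exact p = 0.119, adjusted p = 0.694). That difference rested on A3688, and without it was 0.0176 percentage points. Pdk1 took 5.71, 3.69 and 16.0% in the saline tumors, 24.6, 22.1 and 24.2% after i.v. TLZ, and 5.47, 5.62 and 12.8% after NanoTLZ of the 4 pyruvate dehydrogenase kinases (difference 7.32 percentage points, exact p = 0.238, adjusted p = 0.694), and without A3688 the difference was 11.1 percentage points. The Pdk1 share was higher in every i.v. TLZ tumor than in the other 6, while Pdk4, which marks fasting and fat use, held 64.5% in A3673, 64.4% in A3685 and 71.4% in C3519.

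Among genes of lactate handling, Slc16a3 made up 43.7, 70.5 and 13.6% in the saline tumors, 49.3, 82.9 and 81.2% after i.v. TLZ, and 53.1, 65.7 and 65.8% after NanoTLZ of the 3 carriers (difference 23.8 percentage points, exact p = 0.107, adjusted p = 0.694). A3688 was lowest, and Slc16a1 held 85.6% there. Without A3688 the Slc16a3 difference was 9.29 percentage points. Ldha made up 98.0, 93.1 and 82.8% in the saline tumors, 97.7, 33.2 and 97.8% after i.v. TLZ, and 93.7, 92.4 and 95.3% after NanoTLZ of both subunits (difference -6.26 percentage points, exact p = 0.869, adjusted p = 0.869). Per kb of exon, B3684 was the only tumor in which Ldhb exceeded Ldha, whereas in CPM Ldha was higher there too. Without B3684 the difference was 4.11 percentage points.

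Hexokinase and enolase shares both had their lowest value in saline tumor A3688. Hk2 took 39.4, 43.7 and 20.4% in the saline tumors, 35.7, 46.2 and 25.5% after i.v. TLZ, and 61.0, 48.6 and 34.5% after NanoTLZ of the 3 hexokinases (difference 7.44 percentage points, exact p = 0.405, adjusted p = 0.694), with NanoTLZ tumor C3519 highest. Without A3688 the Hk2 difference was 0.381 percentage points. Eno1 took 99.4, 97.0 and 80.2% in the saline tumors, 97.0, 96.4 and 98.4% after i.v. TLZ, and 96.9, 96.9 and 97.9% after NanoTLZ of the 3 enolases (difference 5.08 percentage points, exact p = 0.298, adjusted p = 0.694). In A3688 the muscle enolase Eno3 held 19.5% of the family, and the same tumor had the highest summed level of 20 skeletal muscle genes, 968 CPM. Leaving A3688 out, the Eno1 difference was -0.921 percentage points.

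For the other 6 families, as for those above, treated and saline tumors overlapped. Treated minus saline was -0.805 percentage points for Pfkm, 5.78 for Pfkfb3, 1.64 for Aldoa, 1.61 for Pgam1, 3.75 for Egln3 and 3.90 for Epas1, with adjusted p of 0.694 to 0.869 in the exact permutation test. Without A3688 these differences were -3.88 for Pfkm, -0.0462 for Pfkfb3, 5.51 for Aldoa, 0.175 for Pgam1, -0.0628 for Egln3 and -2.40 for Epas1. The differences of Pfkfb3, Egln3 and Epas1 changed sign and that of Pgam1 shrank, while those of Pfkm and Aldoa grew. Pfkm changed sign without A3685, B3638 or B3700, and Aldoa without A3673. Per kb of exon, Pfkl was the largest phosphofructokinase in every tumor.

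**Figure D5:**
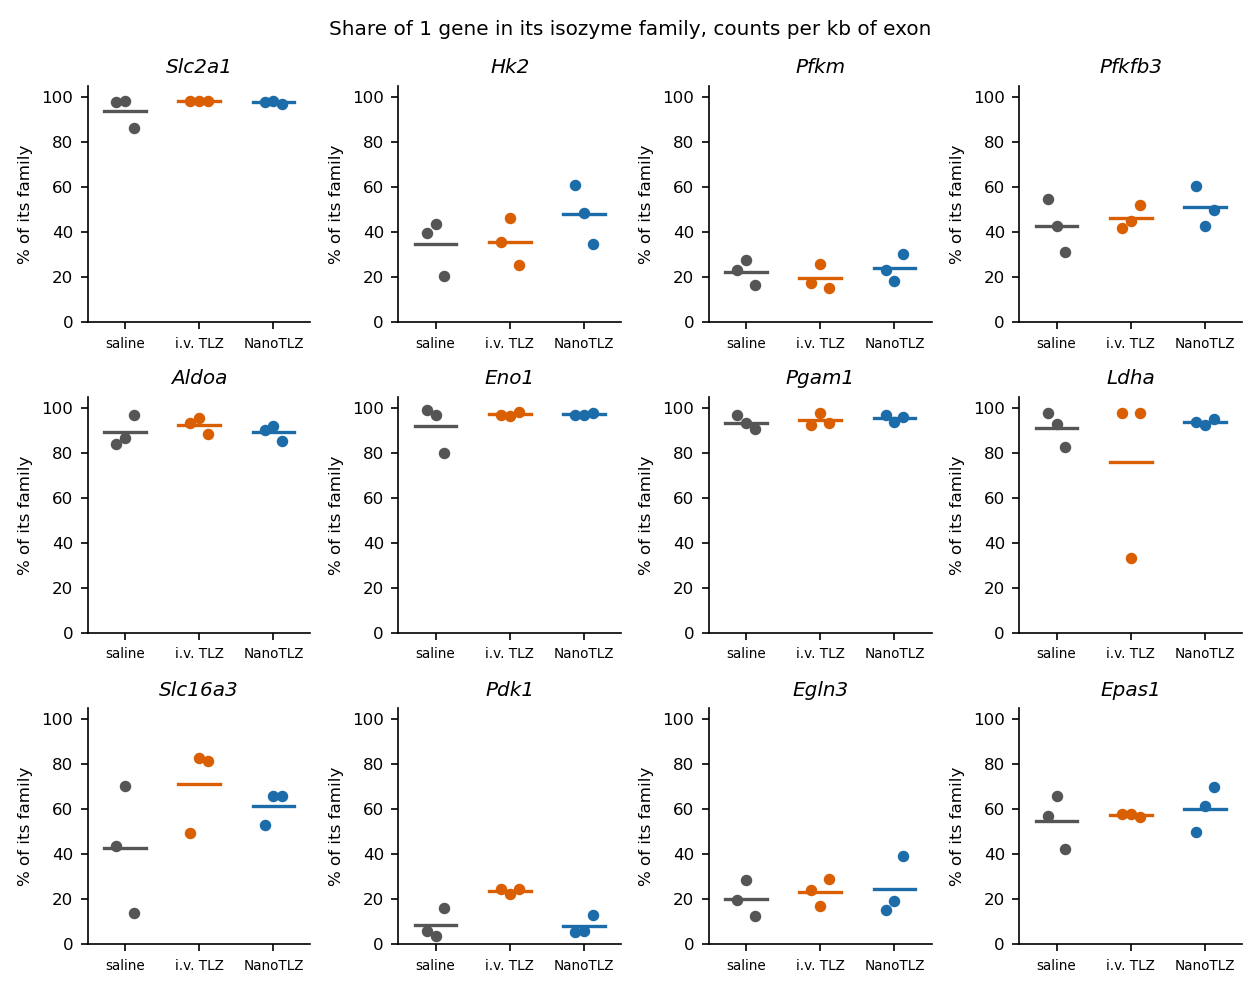
Share of 12 genes in their isozyme families, in percent of counts per kb of exon, in each tumor (dots) with the mean of each group of 3 (line). Slc2a1, Eno1 and Pgam1 stay above 80% in each tumor, Ldha drops to 33.2% in B3684, and Pdk1 is highest in the i.v. TLZ tumors.

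Individual tumors differed from their own group in many members at once. Saline tumor A3688 had the lowest level of 20 of 36 members, where it was lowest for 24.4% of all tested genes. B3684 was the highest tumor for 12 members and B3638 for 10, against 14.3% and 10.7% of all genes. A NanoTLZ tumor was highest for 3 members, where C3519, C3669 and C3698 were highest for 4.76%, 5.98% and 7.42% of all genes. The median SD of log2(CPM + 0.5) over the 36 genes was 0.611 for saline tumors, 0.511 for those given i.v. TLZ and 0.286 for those given NanoTLZ, beside 0.530, 0.429 and 0.278 over all genes. Without A3688 the saline value was 0.430 beside 0.356 over all genes. Without B3684 the i.v. TLZ value was 0.283 beside 0.312, so that the members then varied less than all genes in that group.

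Cell composition also differed between tumors, and its part in these results was not tested. Genes named as highest in a list are so over all 9 tumors together, and except for Col1a1 each was exceeded by others of its list in some tumors. The 10 proliferation genes, with Mki67 highest through A3688 alone, summed to 1251, 794 and 2350.4 CPM in the saline tumors, 389, 528 and 755 CPM after i.v. TLZ, and 654, 549 and 579.8 CPM after NanoTLZ. The sum was highest in A3688, where most members were lowest. The 8 fibroblast genes, with Col1a1 highest, summed to 2499, 1864 and 1656 CPM in the saline tumors, 6379, 1165 and 2895 CPM after i.v. TLZ, and 3814, 3119.9 and 2208 CPM after NanoTLZ. The sum was highest in B3638 and lowest in B3684. The 8 macrophage genes, with C1qa highest, summed to 629.9, 1669.7 and 409 CPM in the saline tumors, 1590.4, 801 and 1460.1 CPM after i.v. TLZ, and 1532, 1635 and 2089 CPM after NanoTLZ. The 8 endothelial genes, with Pecam1 highest, summed to 122, 162 and 80.6 CPM in the saline tumors, 184, 90.7 and 82.5 CPM after i.v. TLZ, and 172, 207 and 162 CPM after NanoTLZ. In i.v. TLZ against saline, where most members were above 0, 7 of 8 fibroblast genes (median 0.65) and 7 of 8 macrophage genes (0.40) were above 0. All 10 proliferation genes (-1.33), all 17 muscle genes tested (-4.71) and all 4 red blood cell genes tested (-1.41) were below 0. In NanoTLZ against i.v. TLZ, where most members were below 0, log2 fold changes were above 0 for 8 of 8 endothelial genes (median 0.62), 8 of 8 T cell genes (1.003) and 7 of 8 macrophage genes (0.54). In that comparison 9 of 10 epithelial genes were below 0 (median -0.63), as most members were. In NanoTLZ against saline, all 8 endothelial, all 8 T cell and all 8 macrophage genes were also above 0, and 9 of 10 epithelial genes below. Against saline, NanoTLZ went the same way as i.v. TLZ in the remaining lists just named, with 7 of 8 fibroblast genes above 0 (median 0.63) and all 10 proliferation (-1.34), all 17 muscle (-4.86) and all 4 red blood cell genes tested (-2.07) below, so these directions were not particular to the free drug. The 6 red blood cell genes, with Hbb-bs highest, summed to 23.2, 27.4 and 59.5 CPM in the saline tumors, 22.2, 11.5 and 3.14 CPM after i.v. TLZ, and 1.40, 5.95 and 8.69 CPM after NanoTLZ. The 20 skeletal muscle genes, with Acta1 highest through A3688, summed to 57.2, 288 and 968 CPM in the saline tumors, 44.9, 27.6 and 23.5 CPM after i.v. TLZ, and 31.8, 24.3 and 22.6 CPM after NanoTLZ. No gene of these lists was at 0 in every tumor.

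Other genes of the same pathways were examined as a wider list. Of 35 other glycolysis genes, 29 were tested and edgeR called 0 in any comparison, with 1 higher and 0 lower at an unadjusted p under 0.05 in treated against saline, where 4.8% and 8.29% of all genes reached that. limma-voom called 0, and DESeq2 called Pdk4 in i.v. TLZ against saline with all 9 tumors and in NanoTLZ against i.v. TLZ with the groups compared. Of the 29, 18 were above 0 in i.v. TLZ against saline and 22 below 0 in NanoTLZ against i.v. TLZ, against 47.6% and 54.4% of all genes. Hk3, a hexokinase of blood cells, was 6.29, 9.91 and 3.26 CPM in the saline tumors, 20.99, 5.85 and 13.7 CPM after i.v. TLZ, and 17.0, 10.4 and 29.1 CPM after NanoTLZ. Pdk4, a pyruvate dehydrogenase kinase, was 169, 98.0 and 9.50 CPM in the saline tumors, 8.87, 3.77 and 20.2 CPM after i.v. TLZ, and 149, 50.1 and 26.2 CPM after NanoTLZ, with low values in A3688 and in all i.v. TLZ tumors. Fbp2, a fructose bisphosphatase of muscle that opposes glycolysis, was 5.38, 5.39 and 3.99 CPM in the saline tumors, 39.8, 0.383 and 72.8 CPM after i.v. TLZ, and 11.4, 7.48 and 16.9 CPM after NanoTLZ, and its 2 highest tumors and its lowest were all i.v. TLZ tumors. Eno3 was highest in A3688 at 34.6 CPM, the tumor with the most muscle gene signal. Pdk3 was 46.5, 25.3 and 28.7 CPM in the saline tumors, 18.1, 32.3 and 18.9 CPM after i.v. TLZ, and 23.4, 20.6 and 21.9 CPM after NanoTLZ. Fbp1, another fructose bisphosphatase, was 2.92, 3.67 and 8.35 CPM in the saline tumors, 3.05, 2.51 and 4.27 CPM after i.v. TLZ, and 2.21, 2.18 and 2.33 CPM after NanoTLZ, and like Pdk3 it was lower in every NanoTLZ tumor than in every saline tumor. Of the 29, 2 were lower in this way and 2 higher, against 8.13% and 7.82% of all genes.

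Of 36 other hypoxia response genes, 35 were tested and edgeR, limma-voom and DESeq2 called 0 in any comparison, with 1 higher and 3 lower at an unadjusted p under 0.05 in treated against saline by edgeR, against 4.8% and 8.29% of all genes. In i.v. TLZ against saline, 20 of the 35 were above 0 (median 0.11), against 47.6% of all genes. In NanoTLZ against i.v. TLZ, 27 were below 0 (median -0.26), against 54.4%. Vegfa, the main vessel growth factor under HIF control, was 363, 296 and 83.2 CPM in the saline tumors, 660.0, 811 and 377 CPM after i.v. TLZ, and 345, 292 and 534 CPM after NanoTLZ. All i.v. TLZ tumors exceeded all saline tumors, and NanoTLZ tumors lay on both sides. Of the 35 genes, 1 was higher in this way, while 2, Zfp395 among them, were lower in every i.v. TLZ than in every saline tumor. Over all genes the shares were 5.99% higher and 5.2% lower. Ppp1r3b, which promotes glycogen storage, was 55.4, 20.5 and 7.89 CPM in the saline tumors, 14.6, 9.07 and 10.7 CPM after i.v. TLZ, and 6.98, 6.22 and 12.0 CPM after NanoTLZ, so that saline tumor A3673 was far above the rest. Tfrc, the transferrin receptor, ranged from 65.0 CPM in C3669 to 336 CPM in A3673. Insig2 and Zfp395 had log2 fold changes of -0.62 and -0.55 in treated against saline, and neither passed the test.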

How the data were processed

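RNA of 9 mammary tumors was sequenced, and Novogene did the sequencing and the first bioinformatics. The authors deposited raw counts of reads per gene, and their processing notes name mm10, TopHat2 and DESeq2 without versions. The counting program, the annotation and the strand setting are not given in the sources used here, so reads shared by overlapping genes or near copies cannot be assigned with certainty. Totals were 17538380 to 21194980 counts per tumor. Symbols came from GENCODE M21 (GRCm38), in which 34490 of 35275 identifiers were found and 785 were not.

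Genes were kept by filterByExpr (minimum count 10, minimum total 15), which left 15821. Counts were scaled by TMM, and a group-means model of all 9 tumors was fitted with the quasi-likelihood functions of edgeR 4.0.16 (R 4.3.3). P-values were adjusted by Benjamini-Hochberg across the tested genes, with a threshold of 0.05 for calling a gene. The 4 comparisons set each treated group against saline, their average against saline, and NanoTLZ against i.v. TLZ. Members were named if they were among the 5 smallest p in a comparison, did not overlap between treated and saline tumors, or were among the 5 highest levels per kb of exon. Shares of 12 isozyme families were compared by exact permutation. Lists of other glycolysis genes, other hypoxia response genes, proliferation genes and markers of muscle, fat, endothelium, macrophages, neutrophils, T cells, fibroblasts, red blood cells and mammary epithelium were summed. The members and lists were chosen with earlier results of these data known. Intervals cover counting error and variation between tumors, and 3 counts were taken as the floor.

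Alternatives were DESeq2 1.42.0 on all 9 tumors or on the groups compared, edgeR on the groups compared, RLE or upper quartile scaling, no filter, at least 10 counts in every tumor, robust dispersion, limma-voom (limma 3.58.1) and each tumor left out. Counts of members above or below 0, of members apart in 1 group, and their values under other scalings or without a tumor were added after the values were seen. The method was tested on simulated data. Promoters came from RefSeq (GRCm38.p6). Summaries used pandas 2.3.3, numpy 2.4.6 and scipy 1.17.1 in Python 3.11.15, and figures matplotlib 3.10.9. The study's RT-qPCR, western blots and flow cytometry were not analysed here, and single values of some listed or neighbouring genes are not reported here.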

Additional observations from a re-analysis of the deposited data

How the results depend on the processing

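No paired analysis was possible because no number in the tumor names recurs between groups. Across all alternatives, 812 values kept their direction and side of the threshold, 42 counts or values moved, 6 gained significance, 0 lost it and 10 reversed. Genes called in i.v. TLZ against saline numbered 194 with DESeq2 on all 9 tumors, 92 with DESeq2 on the groups compared and 5 without a filter. In NanoTLZ against saline they numbered 110, 171 and 6 with these 3 choices, 0 with edgeR on the groups compared, and 0 to 3 when a tumor was left out. In NanoTLZ against i.v. TLZ DESeq2 called 3 on all 9 tumors and 21 on the groups compared. For both treated groups against saline the numbers were 273 and 366 with DESeq2, 6 with edgeR on the groups compared, 1 with limma-voom, 33 without a filter, 1 with at least 10 counts in every tumor, and 0 to 18 when a tumor was left out. Members called were 2 with DESeq2 on all 9 tumors in i.v. TLZ against saline and 2 with each DESeq2 fit in treated against saline. Ldhb in NanoTLZ against i.v. TLZ reversed to 1.04 without B3684, and ranged from -4.65 to 1.04 over the tumors left out and from -4.09 to -1.18 (limma-voom) over the methods. Shares reversed for Pfkm to 1.82 without A3685, 0.049 without B3638 and 0.526 without B3700, and for Pfkfb3 to -0.046, Eno1 to -0.921, Egln3 to -0.063 and Epas1 to -2.40 percentage points without A3688. The Aldoa share reversed to -1.06 without A3673 and the Ldha share to 4.11 without B3684. Over the tumors left out, the other ends of these ranges were -3.88 for Pfkm, 11.6 for Pfkfb3, 5.51 for Aldoa, 8.68 for Eno1, -10.5 for Ldha, 7.82 for Egln3 and 9.27 percentage points for Epas1. In each case the cause was not tested. With 3 tumors in a group, 1 tumor can set a mean, and DESeq2 called more genes than edgeR in every comparison.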

Other observations

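Marker lists not described above also differed between tumors. The 8 neutrophil genes, with Csf3r highest over all 9 tumors together and Mmp9 higher in 4 of them, summed to 136, 275 and 13.1 CPM in the saline tumors, 279, 99.4 and 69.0 CPM after i.v. TLZ, and 106, 92.5 and 224 CPM after NanoTLZ. A3688 was lowest by far. The 8 T cell genes, with Cd4 highest overall but Lck or Cd8a higher in 4 tumors, summed to 7.04, 20.0 and 18.3 CPM in the saline tumors, 28.1, 7.43 and 13.5 CPM after i.v. TLZ, and 42.4, 19.5 and 41.5 CPM after NanoTLZ, and the 8 adipocyte genes, with Lipe highest overall but Fabp4 higher in A3688 and C3519, to 28.4, 22.3 and 36.1 CPM in the saline tumors, 31.5, 30.2 and 18.0 CPM after i.v. TLZ, and 81.9, 24.1 and 21.3 CPM after NanoTLZ. NanoTLZ tumor C3519 had the highest sums of both. None of these genes was at 0 in every tumor. Krt5, a basal keratin, was 4.86, 3.15 and 1849 CPM in the saline tumors, 7.47, 2.30 and 72.9 CPM after i.v. TLZ, and 11.7, 9.66 and 2.33 CPM after NanoTLZ, so A3688 also stood apart in its epithelial markers.

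Eno1b, the near-identical copy of Eno1, was 281, 227 and 81.5 CPM in the saline tumors, 319, 255 and 283 CPM after i.v. TLZ, and 176, 194 and 192 CPM after NanoTLZ. Trp53, of which 1 copy is missing in these mice, was 23.4, 34.6 and 45.6 CPM in the saline tumors, 33.0, 38.9 and 31.1 CPM after i.v. TLZ, and 108, 29.4 and 31.3 CPM after NanoTLZ, with C3519 highest. Pfkm had 9015 counts over all tumors and overlaps Senp1, with 11623 counts, on the opposite strand. Ankrd37 had 504 counts and overlaps Ufsp2, with 5319. Pfkp overlaps Pitrm1 (9142 counts), and Tpi1, Gapdh and Aldoa each overlap another protein-coding gene. Without the strand setting, part of the reads of such pairs may have been counted on either gene, and values of Ankrd37 and Pfkm are uncertain for that reason.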
